A study of Mus musculus with 8 samples.

Results

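Of the 44343 genes in the deposited table, 8 were examined here, the interferon regulatory factor genes Irf1, Irf2, Irf3, Irf4, Irf5, Irf7, Irf8 and Irf9. They were taken as the rows whose gene name equals one of these symbols, and all 8 were found and passed the filter on low values (mean normalized count 10 or more across libraries). RNA of beta cells, the insulin-producing cells of the pancreas, was sequenced from mice that lack Adar in these cells (KO, 4 libraries) and from mice heterozygous for the deletion (HET, 4 libraries). Adar encodes an enzyme that turns adenosine into inosine in double-stranded RNA. KO mice were MipCreER; Adar floxed/floxed; R26R-EYFP and HET mice were MipCreER; Adar floxed/+; R26R-EYFP. In both genotypes the Cre recombinase is driven by the mouse insulin promoter and becomes active on tamoxifen, and the reporter makes recombined cells yellow fluorescent. All mice were injected at 1 month of age with 2 tamoxifen doses of 8 mg, and fluorescent islet cells were sorted 7 days afterwards. HET cells therefore also carry the transgene, the reporter, the tamoxifen treatment and 1 recombined Adar allele. The labels do not give the number of mice in a library, and p-values here cover only the variation among libraries, which may be technical. The study asks what drives islet inflammation, and then diabetes, when beta cells lose Adar.

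Interferon regulatory factors are transcription factors with a shared DNA-binding domain that reads GAAA-rich elements in the promoters of interferons and of interferon-induced genes. IRF3 and IRF7 lie in the cytoplasm until kinases phosphorylate them downstream of sensors of foreign nucleic acid, and they then switch on interferon genes. IRF3 is made constitutively in most cells, whereas IRF7 is itself induced by interferon. IRF9 is the DNA-binding subunit of ISGF3, a complex that also holds STAT2 and carries the signal of the type I interferon receptor. IRF1 activates, and IRF2 often opposes, genes of antigen presentation. IRF4, IRF5 and IRF8 are best known from B cells, macrophages and dendritic cells. In beta cells the family is known from the response of islets to viruses and to inflammatory cytokines in type 1 diabetes.

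The promoter windows of the members differed in the elements that interferon and cytokine signals use. RefSeq windows on GRCm38.p6, from 250 bases before to 50 bases after an annotated start, were available for all 8 members (11 windows). Searched on both strands were the core bound by the family (AANNGAAA), the core of the interferon-stimulated response element (GAAA, any 2 bases, GAAA), the gamma-activated site (TTCNNNGAA) and the kappaB motif of NF-kappaB. A match of the response element core contains a match of the family core. A family core was found in 1 of the 8 members and in 26.7% of 27025 genes with a window. The response element core was found in 1 of 8 against 3.99% of genes, the gamma-activated site in 3 of 8 against 9.55%, and the kappaB motif in 2 of 8 against 5.14%. Shown are the windows of Irf7, the member with the largest fold change, and of the 3 members with a match. Capitals mark the matched bases, and each window is written 5′ to 3′ on the strand of its gene.
Irf7 (chr7:141266375-141266674, minus strand): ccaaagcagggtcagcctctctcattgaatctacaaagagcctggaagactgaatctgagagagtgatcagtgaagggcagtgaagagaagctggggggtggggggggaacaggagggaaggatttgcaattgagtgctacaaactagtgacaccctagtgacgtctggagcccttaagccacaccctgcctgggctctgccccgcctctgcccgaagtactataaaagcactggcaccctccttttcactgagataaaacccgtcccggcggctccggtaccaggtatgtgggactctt
Irf1 (chr11:53769764-53770063, plus strand): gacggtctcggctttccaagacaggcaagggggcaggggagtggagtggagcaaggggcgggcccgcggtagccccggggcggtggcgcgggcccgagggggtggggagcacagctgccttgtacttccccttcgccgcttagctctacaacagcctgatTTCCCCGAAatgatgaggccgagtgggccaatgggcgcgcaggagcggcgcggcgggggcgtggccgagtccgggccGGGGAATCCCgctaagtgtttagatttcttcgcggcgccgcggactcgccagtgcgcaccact
Irf2 (chr8:46739495-46739794, plus strand): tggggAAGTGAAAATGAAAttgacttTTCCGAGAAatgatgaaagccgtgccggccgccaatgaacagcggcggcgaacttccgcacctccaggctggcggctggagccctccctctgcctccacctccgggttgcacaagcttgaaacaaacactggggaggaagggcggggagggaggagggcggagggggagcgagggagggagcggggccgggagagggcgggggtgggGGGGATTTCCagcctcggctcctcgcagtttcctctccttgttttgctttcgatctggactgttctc
Irf8 (chr8:120736108-120736407, plus strand): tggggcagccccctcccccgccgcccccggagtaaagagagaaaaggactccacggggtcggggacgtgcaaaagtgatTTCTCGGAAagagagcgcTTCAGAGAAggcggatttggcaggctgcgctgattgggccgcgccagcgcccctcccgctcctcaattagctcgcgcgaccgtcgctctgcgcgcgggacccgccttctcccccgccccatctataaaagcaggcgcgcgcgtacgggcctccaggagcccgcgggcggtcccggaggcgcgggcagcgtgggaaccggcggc

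In Irf1 the gamma-activated site lay from -90 to -82 relative to the start and a kappaB match from -13 to -4. In Irf2 the family cores and the response element core lay between -245 and -232, a gamma-activated site from -224 to -216 and a kappaB match from -17 to -8. Irf8 held gamma-activated sites from -171 to -163 and from -153 to -145. The windows of Irf7, Irf9, Irf3, Irf4 and Irf5 held none of the 4 motifs, which says only that these letters are not in these windows. The windows are those of RefSeq starts, and the GENCODE model of Irf9 begins further upstream (chromosome 14, base 55603571).

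Recovered reads numbered 5370765 to 15883473 in the KO libraries and 5925893 to 12819040 in the HET libraries. Adar, the targeted gene, was at 4030, 2365, 615 and 1343 normalized counts in KO 1 to KO 4 and at 943, 1173, 1187 and 744 in HET 1 to HET 4, so its count was not lower in KO as a group (log2 fold change 0.75 ± 0.58, limma adjusted p = 0.910). The count covers the whole gene, the deleted exons are not given in the sources used here, and it therefore does not check the genotype labels. General level differed between libraries of one genotype. For the median of 6697 genes averaging 200 normalized counts or more, KO 1 and KO 2 were 0.88 and 0.96 above the mean of all libraries in log2 units as deposited. KO 3 and KO 4 were at -0.77 and -0.56, and the HET libraries between -0.46 and 0.22. Mitochondrial genes took 17.4% of the reads of KO 3, 7.23% to 10.4% in the other KO libraries and 6.90% to 8.35% in HET libraries. Receptor genes of olfactory and vomeronasal neurons took 0.0342% to 0.315% of the reads of KO libraries, with KO 1 and KO 2 lowest, and 0.0838% to 0.236% of those of HET libraries. The summed level of 10 beta-cell markers was 37329 to 107743 RPM (reads per 1 M reads) in KO libraries, lowest in KO 1 and KO 4, and 94177 to 118928 in HET libraries. Ins2, an insulin gene, was at 125891 to 835219 normalized counts in KO and 389199 to 799944 in HET. This marker of the labelled cell type was thus high in each library, and the other beta-cell markers are given only in the sum. Results below that rest on KO 1 and KO 2, or on KO 3 and KO 4, are therefore given with and without them. In the main fit limma found no spread between genes beyond the trend with level, so its p-values share 1 spread for genes of like level (median total degrees of freedom 128988, against 54.6 with TMM scaling).

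Irf7 was the member that rose. Irf7 (ENSMUSG00000025498, chromosome 7, 141262706 to 141266481, minus strand, GRCm38) stood at 6887, 1896, 1090 and 1851 normalized counts in KO 1 to KO 4. In HET 1 to HET 4 it stood at 232, 300, 232 and 287. The KO libraries all lay above the HET libraries, and KO 1 lay far above the other KO libraries, while the HET values were close together. The mean was 2931 ± 2663 in KO and 263 ± 35.8 in HET (SD, n = 4 each). The log2 fold change, on the log2(value + 1) scale, was 3.11 ± 0.55 (SE, limma with Benjamini-Hochberg adjusted p = 5.85e-06). In the same fit 0.921% of 21498 genes were called higher (198) and 0.0233% lower (5), at an adjusted p under 0.05. Leaving out KO 1, KO 3 (the library with the most mitochondrial reads) or HET 1 moved the 198 genes to 105, 338 and 129. With TMM scaling the fold change was 2.93 ± 0.42 (SE, adjusted p = 3.55e-06), where 0.679% of genes were called higher. In that scaling the libraries held 664, 161, 135 and 236 RPM in KO 1 to KO 4, against 28.7, 34.8, 25.9 and 37.9 in HET 1 to HET 4. Against the HET mean, KO 1 to KO 4 were 4.39, 2.35, 2.09 and 2.90 higher on the log2 scale with TMM factors, so the rise was at least 2.09 in each KO library. Without KO 1 the log2 fold change was 2.58 under the deposited scaling. It was 2.59 with TMM factors from KO 3 and KO 4 alone and 3.37 from KO 1 and KO 2 alone. Since beta cells were measured in bulk, more RNA per cell and a larger number of responding cells cannot be told apart.

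**Figure D1:**
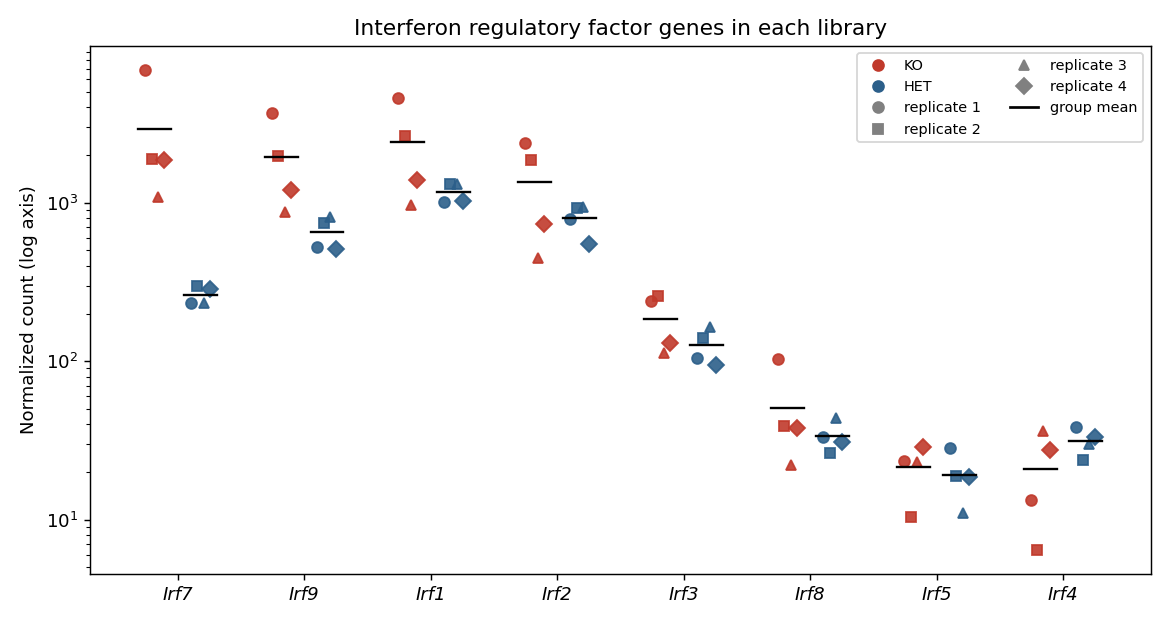
Normalized counts of the 8 members in each library on a log axis, KO (red) left of HET (blue), with symbols for the replicate number and a black bar for the group mean (n = 4 each). The KO and HET points of Irf7 and Irf9 do not overlap, those of the other members do, and KO 1 is the highest KO library for Irf7, Irf9, Irf1, Irf2 and Irf8.

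Irf9 was higher in every KO library than in every HET library, but its call depended on the fit. Irf9 (ENSMUSG00000002325, chromosome 14, 55603571 to 55610030, plus strand) was at 3680, 1975, 868 and 1201 normalized counts in KO 1 to KO 4 and at 523, 746, 818 and 510 in HET 1 to HET 4. KO 3 lay just above HET 3, so the gap between the groups was small. The mean was 1931 ± 1255 in KO and 649 ± 156 in HET (SD, n = 4 each), and the log2 fold change was 1.38 ± 0.57 (SE). Irf9 did not pass the main test (limma adjusted p = 0.487, unadjusted p = 0.0148) or the TMM fit (1.20 ± 0.42, adjusted p = 0.318). It passed with quantile scaling (adjusted p = 0.00960, where 1.49% of genes were higher), with DESeq2 (adjusted p = 0.0376, where 1.25% were) and when the fit held the 6697 better expressed genes, scaled by TMM factors (adjusted p = 0.00729, where 6.03% were). The quantile fit called 320 genes higher and 138 lower, and the last of these fits 404 and 284. With edgeR, which called 0.673% of genes higher, the adjusted p was 0.113. Over its 33 alternatives the adjusted p of Irf9 ran from 3.22e-12 to 1.00 and the log2 fold change from 0.68 to 2.08. It passed with TMM scaling without KO 3 (1.44, adjusted p = 0.00626). All 4 KO values lay above all 4 HET values for 2 of the 8 members, Irf7 and Irf9, and for 2.19% of all tested genes.

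The make-up of the family within each library differed between genotypes, a description that no library scaling factor can move. Reads of each member were divided by its exonic length and expressed as a share of the sum over the 8 members. Irf7 made up 44.6%, 26.9%, 35.8% and 40.2% of this sum in KO 1 to KO 4, against 10.7%, 10.9%, 8.37% and 13.8% in HET 1 to HET 4. The lowest KO share was thus above the highest HET share. Irf1 took 28.4% to 35.5% in KO libraries and 44.6% to 47.2% in HET libraries. Irf9 took 16.7% to 20% in KO libraries and 16.9% to 20.7% in HET libraries, so its part of the sum overlapped between genotypes while its level was higher in KO. Irf2 held 7.51% to 13.4% in KO and 13.6% to 18.6% in HET, and Irf3 held 1.71% to 4.05% in KO and 4.96% to 6.47% in HET. Shares sum to 100% in a library, so the larger share of Irf7 by itself lowers the others. The remaining members, Irf4, Irf5 and Irf8, each stayed at or below 1.69% in every library.

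**Figure D2:**
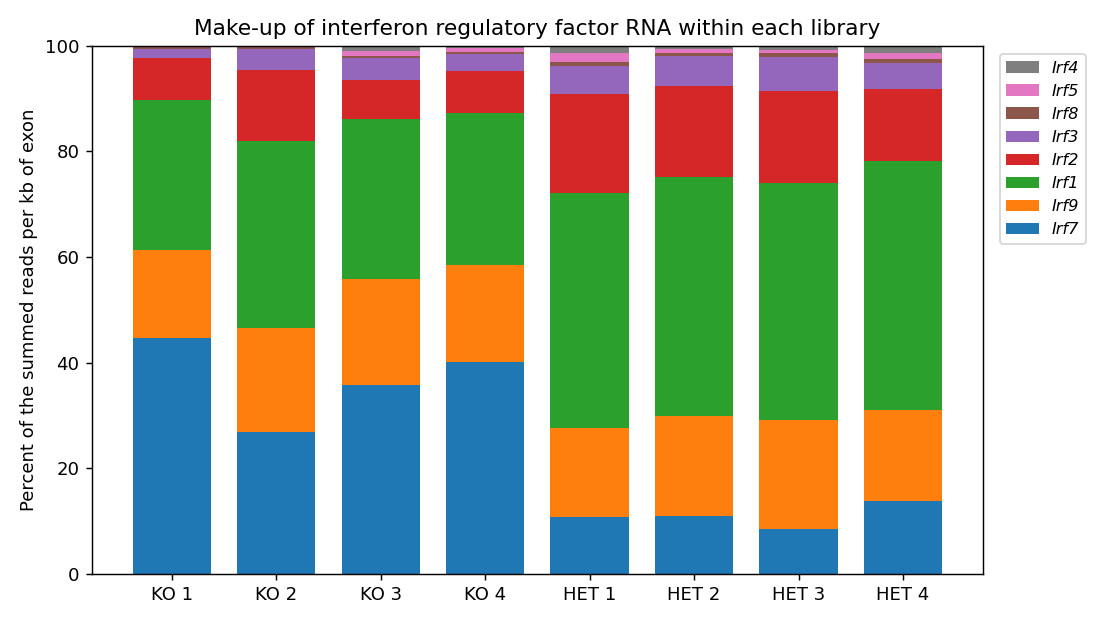
Share of each member in the summed reads per kb of exon of the 8 members, 1 stacked bar a library with the KO libraries on the left. The Irf7 segment at the bottom fills 26.9% to 44.6% of the KO bars and 8.37% to 13.8% of the HET bars, and the Irf9 segment above it has a similar height in both.

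The order of levels per kb of exon followed from these shares. In KO libraries the mean level was 776 ± 705 normalized counts per kb for Irf7, 604 ± 410 for Irf1, 359 ± 233 for Irf9, 183 ± 125 for Irf2 and 54.0 ± 21.8 for Irf3 (SD, n = 4). In HET libraries Irf1 led with 294 ± 42.2, before Irf9 with 121 ± 29.0, Irf2 with 109 ± 24.5, Irf7 with 69.6 ± 9.49 and Irf3 with 36.5 ± 9.31. The rank of Irf7 was 1 in KO 1, KO 3 and KO 4 and 2 in KO 2, and its rank was 4 in HET 1, HET 2 and HET 3 and 3 in HET 4. Irf9 and Irf2 changed places among the HET libraries and did not differ beyond their spread there. Irf7 and Irf1 changed places among the KO libraries in the same way. Irf5, Irf4 and Irf8 formed the bottom of the order in all libraries, at 4.27 to 7.35 normalized counts per kb as group means, with overlapping spreads.

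Irf1 and Irf2 were highest in KO 1 and KO 2, and neither was called. Irf1 (ENSMUSG00000018899, chromosome 11, 53770014 to 53778374, plus strand) was at 4605, 2638, 973 and 1391 normalized counts in KO 1 to KO 4 and at 1018, 1316, 1315 and 1032 in HET 1 to HET 4. KO 1, KO 2 and KO 4 lay above every HET library and KO 3 below every one. The log2 fold change was 0.79 ± 0.59 (SE, limma adjusted p = 0.903), and TMM factors made it 0.61 ± 0.44 (adjusted p = 0.791). Irf2 (ENSMUSG00000031627, chromosome 8, 46739732 to 46847458, plus strand) was at 2399, 1850, 448 and 730 in KO 1 to KO 4 and at 792, 933, 942 and 553 in HET 1 to HET 4. Its KO libraries lay on both sides of the HET range, and its log2 fold change was 0.48 ± 0.56 (adjusted p = 0.948). With TMM factors, KO 1 and KO 2 alone gave 1.17 for Irf1 and 1.00 for Irf2, while KO 3 and KO 4 alone gave 0.15 and -0.31. The higher level of Irf1 and Irf2 in KO 1 and KO 2 goes with the higher median level of all well-expressed genes in those libraries, and the part of that level in the result was not tested.

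Irf3, the constitutive partner of Irf7, was not called. Irf3 (ENSMUSG00000003184, chromosome 7, 44997648 to 45002848, plus strand) stood at 241, 259, 113 and 130 normalized counts in KO 1 to KO 4 and at 105, 140, 164 and 94.0 in HET 1 to HET 4. KO 1 and KO 2 lay above the HET range and KO 3 and KO 4 within it. The log2 fold change was 0.50 ± 0.44 (SE, limma adjusted p = 0.920), and TMM factors made it 0.32 ± 0.31 (adjusted p = 0.825). These intervals do not show that Irf3 is alike in both genotypes.

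Ratios to Irf3 inside 1 library, which need no scaling, separated the genotypes for Irf7 and Irf9. The library held 28.6, 7.33, 9.69 and 14.2 reads of Irf7 for each read of Irf3 in KO 1 to KO 4, against 2.21, 2.14, 1.42 and 3.05 in HET 1 to HET 4. The ratio of Irf9 to Irf3 was 15.3, 7.63, 7.72 and 9.21 in KO and 4.98, 5.33, 4.99 and 5.43 in HET. For both ratios the groups did not overlap, and the HET values of Irf9 to Irf3 were close together. Irf7 also gained on Irf9, with 0.960 to 1.87 reads for each read of Irf9 in KO and 0.284 to 0.562 in HET. The ratio of the activator Irf1 to its counterpart Irf2 was 1.92, 1.43, 2.17 and 1.91 in KO and 1.29, 1.41, 1.40 and 1.87 in HET, and those groups overlapped. Irf1 to Irf3 and Irf2 to Irf3 overlapped as well. These ratios are descriptions of reads, with no test.

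**Figure D3:**
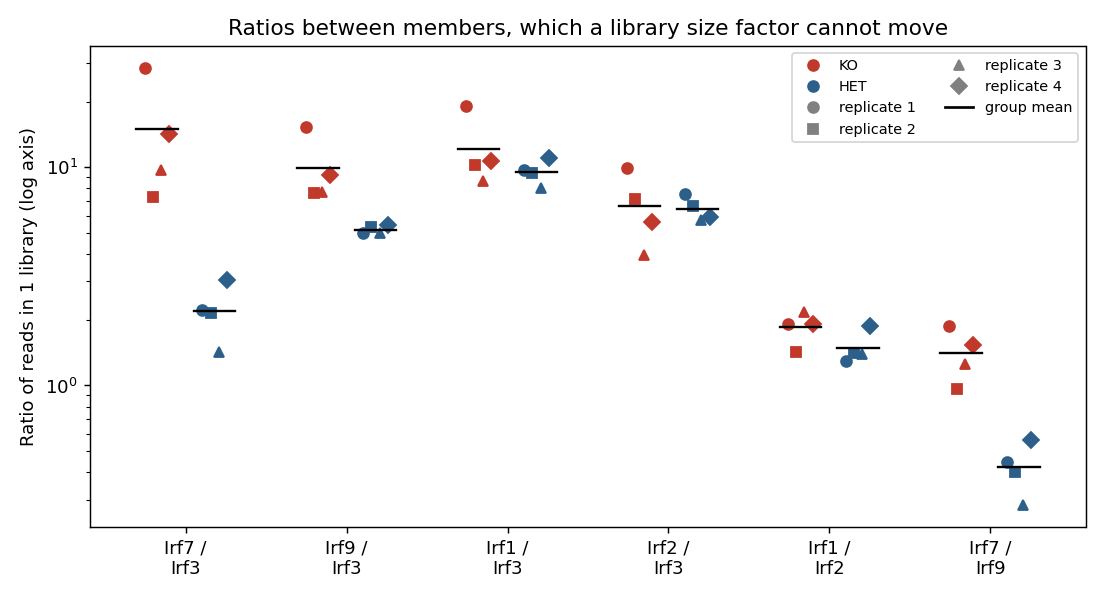
Ratios of reads between pairs of members inside each library on a log axis, KO (red) left of HET (blue), with a bar at the mean of 4 libraries. KO and HET points are separate for Irf7 over Irf3, Irf9 over Irf3 and Irf7 over Irf9, and overlap for the ratios among Irf1, Irf2 and Irf3.

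The members best known from immune cells were low in the sorted cells. Irf8 (ENSMUSG00000041515, chromosome 8, 120736358 to 120756694, plus strand), a factor of macrophages and dendritic cells, was at 103, 38.8, 22.1 and 38.1 normalized counts in KO 1 to KO 4 and at 33.3, 26.3, 43.7 and 30.8 in HET 1 to HET 4. KO 1 stood above the other libraries with 115 reads, and the rest of the KO libraries overlapped the HET libraries. The log2 fold change was 0.37 ± 0.40 (SE, limma adjusted p = 0.946) and without KO 1 it was -0.04. Irf5 (ENSMUSG00000029771, chromosome 6, 29526625 to 29541871, plus strand), a factor downstream of Toll-like receptors, had 23.3, 10.4, 23.2 and 28.6 in KO and 28.2, 18.8, 11.1 and 18.6 in HET. Its groups overlapped throughout (0.13 ± 0.43, adjusted p = 0.983). Irf5 shares 14.1% of its exonic length with Tnpo3 on the opposite strand, the counting of such reads is not stated, and its value is uncertain for that reason. Irf1, Irf3 and Irf7 share 1.19% to 3.40% of theirs with genes on the opposite strand, and Irf9 shares 2.28% with Rnf31 on its own strand.

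Irf4 was the only member with a negative log2 fold change in the main fit. Irf4 (ENSMUSG00000021356, chromosome 13, 30749226 to 30766976, plus strand), a factor of B and plasma cells, was at 13.4, 6.47, 36.4 and 27.4 normalized counts in KO 1 to KO 4, from 15, 5, 33 and 46 reads. In HET 1 to HET 4 it was at 38.4, 23.8, 30.0 and 33.2. KO 1 and KO 2 lay below the HET libraries and KO 3 and KO 4 among them. The log2 fold change was -0.79 ± 0.42 (SE, limma adjusted p = 0.774), and from KO 3 and KO 4 alone it was 0.03. Summed pan-leukocyte markers were also lowest in KO 1 and KO 2. The summed level of 5 pan-leukocyte markers was 3.65, 2.39, 22.9 and 21.9 RPM in KO 1 to KO 4 and 13.5, 9.52, 6.63 and 18.4 in HET 1 to HET 4. Summed markers ran from 16.9 to 43.9 in KO and 42.5 to 66.0 in HET for macrophages, from 5.40 to 36.1 and 16.5 to 31.5 for dendritic cells, from 5.40 to 38.9 and 14.1 to 34.0 for T cells, from 4.55 to 34.5 and 12 to 29.5 for B cells, and from 1.85 to 22.3 and 6.86 to 16.3 for NK cells. Acinar, endothelial and stellate cell lists were likewise lowest in KO 1 and KO 2. Duct markers were not, at 328, 258, 238 and 266 RPM in KO 1 to KO 4, nor were beta-cell markers. Acinar markers summed to 4.03, 4.55, 33.1 and 29.4 RPM in KO 1 to KO 4 and 8.19 to 22.2 in HET, endothelial markers to 12.1, 7.64, 41.0 and 43.4 in KO and 17 to 39.6 in HET, and stellate cell and fibroblast markers to 9.76, 5.48, 54.0 and 52.9 in KO and 17.6 to 40.1 in HET. No marker of these lists was at 0 in all 8 libraries, and Ptprc, the pan-leukocyte antigen CD45, was at 15.5 to 73.9 normalized counts in KO and 34.3 to 64.0 in HET. Of the highest marker of each list, C1qa (macrophages) was at 71.7, 208, 40.8 and 26.8 normalized counts in KO 1 to KO 4, higher in KO 1 and KO 2 than in KO 3 and KO 4, and at 164 to 265 in HET. Cd22 (B cells) was at 13.4 to 42.9 in KO and 36.0 to 60.2 in HET, and Klrk1 (NK cells) at 17 to 48.5 in KO and 21.4 to 32 in HET. Zbtb46 (dendritic cells) was at 185 in KO 1, 53.1 to 62.9 in the other KO libraries and 74.5 to 101 in HET. Lck (T cells) was at 83.4 in KO 1, 27.2 to 35.1 in the other KO libraries and 24.3 to 36.0 in HET. KO 1, the library with the highest Irf7 and Irf8, was thus also highest for Zbtb46 and Lck. The summed immune lists in KO 1 were nevertheless below the HET range, except that of dendritic cells, which was within it at 16.7 RPM. The part of these cells, and of the receptor share that is lowest in KO 1 and KO 2, in the values of Irf4, Irf5 and Irf8 was not tested.

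Across the family, 1 of 8 members was called higher and 0 lower in the main fit, Irf7, and without adjustment 2 were higher and 0 lower (p under 0.05), where 4.05% of all tested genes were higher and 2.7% lower. The median log2 fold change of the members was 0.49, and 0.05 over all tested genes. With TMM scaling these medians were 0.31 and -0.12, so that scaling moved all genes down together. The call of Irf7 held in 33 of 33 alternatives (highest adjusted p = 0.00369, in the fit of the 6697 better expressed genes). With TMM scaling the sign of Irf5 turned to negative (-0.04 ± 0.49), and the other members kept their sign.

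**Figure D4:**
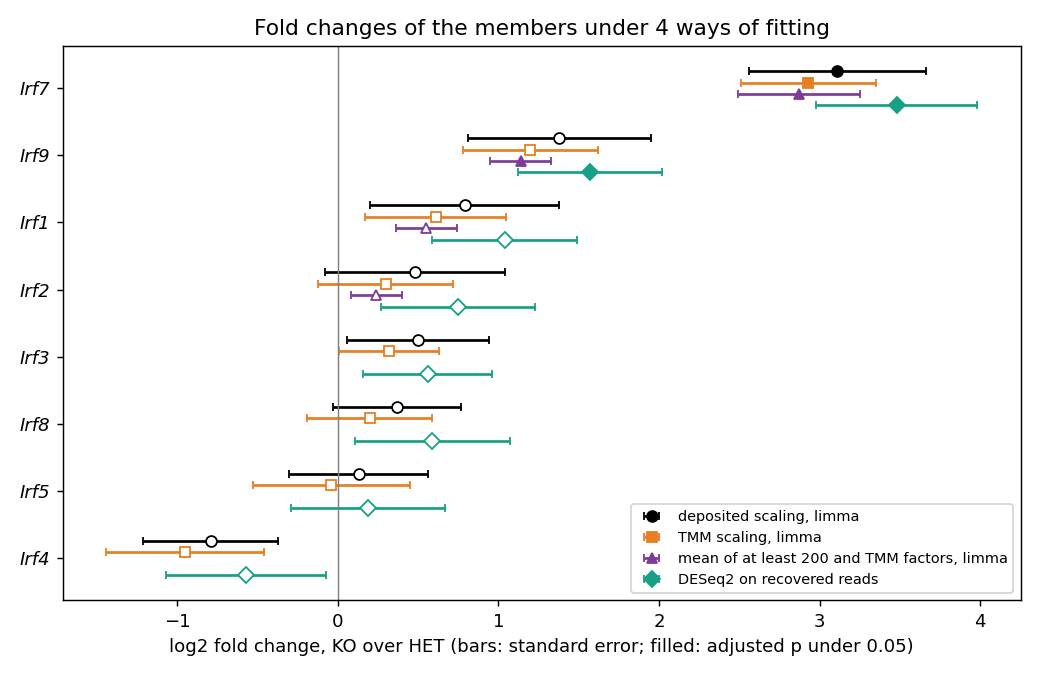
log2 fold changes of KO over HET with standard errors for the 8 members under 4 fits, filled where the adjusted p is under 0.05. Irf7 is filled in all 4 fits at 2.87 to 3.48, Irf9 in 2 of them, and the other members in none.

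The genes whose pattern over the 8 libraries was most like that of a member were read from log2 RPM with TMM factors, among 10527 genes averaging 50 or more. Genes with the symbol of a predicted model (Gm and a number, or ending in Rik) had been left out. For Irf7 these were Gbp3, a guanylate-binding protein (Pearson r = 0.997), Tgtp2, an interferon-induced GTPase (0.996), and Mx1, an antiviral GTPase (0.995). They averaged 2094 ± 2430, 251 ± 218 and 810 ± 463 in KO and 70.3 ± 18.9, 17.4 ± 3.52 and 191 ± 21.3 in HET (SD, n = 4 each). Tgtp2 has a near-identical neighbour, Tgtp1, and its value is uncertain between them. For Irf9 they were Mitd1 (0.994), Arl14ep (0.992) and Ogfr, the opioid growth factor receptor (0.990). For Irf1 they were Npat, a regulator of histone genes (0.996), Trp53, which encodes p53 (0.995), and Tapbp, the class I peptide-loading chaperone tapasin (0.993). Irf2 was followed by Strn4 (0.998), Trim28, a corepressor (0.996), and Kri1 (0.996), and Irf3 by the splicing factor Cdc5l (0.990), Srek1ip1 (0.979) and Rom1 (0.979). The correlations are over 8 libraries that also share depth and genotype, and with so many genes ranked, high values are reached easily. Between members, r was 0.93 for Irf7 with Irf9 and for Irf1 with Irf9, 0.90 for Irf1 with Irf2, and 0.50 for Irf2 with Irf7.

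Upstream of the family, a pair of cytosolic RNA sensors was called higher and no kinase passed the main test. Of 12 tested sensors and adaptors (14 listed), 2 were higher and 0 lower, beside the 0.921% and 0.0233% over all genes, with a median log2 fold change of 0.39. The 2 were Ifih1, which encodes the double-stranded RNA sensor MDA5, and Dhx58, its relative LGP2. Ifih1 had 7496, 1601, 507 and 1530 normalized counts in KO 1 to KO 4 and 161, 230, 211 and 198 in HET 1 to HET 4. Dhx58 was at 2827, 905, 448 and 849 in KO and at 167, 155, 154 and 134 in HET (log2 fold change 2.7 ± 0.51, limma adjusted p = 3.51e-05). Both genes were above the HET range in every KO library. So was Ddx58, which encodes the sensor RIG-I, at 7257, 2942, 1015 and 2193 in KO and 705 to 955 in HET, but it did not pass the main test (log2 fold change 1.65 ± 0.59, limma adjusted p = 0.275). DESeq2 called 3 of the list higher and edgeR 2, beside 1.25% and 0.673% of all genes. Without KO 3 the count was 4, in a fit that called 338 genes higher. Of 9 kinases and kinase adaptors that phosphorylate the factors, the main limma fit called 0, also without adjustment. Limma with TMM scaling, edgeR and DESeq2 called 0 as well. The fit of the 6697 better expressed genes (404 higher and 284 lower) tested 7 of the list, with 0 higher and 1 lower. In the main fit the median of the list was 0.26. Tank, an adaptor of TBK1, was at 507 ± 265 in KO and 273 ± 34.5 in HET (0.75 ± 0.50, limma adjusted p = 0.888). Tbkbp1, another TBK1 adaptor, was at 14.8 ± 4.93 in KO and 20.5 ± 4.45 in HET. Of the 3 corepressors that bind IRF2, 0 were called by the main limma fit, edgeR or DESeq2, and 0 by the main fit without adjustment. The fit of the 6697 better expressed genes called 1 of them higher. With KO 1 and KO 2 only, 3 corepressors and 7 kinases or adaptors were called higher, as were 9809 genes. In the main fit Irf2bp1 had a log2 fold change of 0.77 ± 0.49 and Irf2bp2 of 0.66 ± 0.60.

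Stat2, whose product is a partner of IRF9, had a fold change close to that of Irf9 and likewise did not pass the main test. It was at 4553, 2099, 610 and 1559 in KO and at 596, 824, 753 and 570 in HET (log2 fold change 1.36 ± 0.57, limma adjusted p = 0.518). KO 3 lay within the HET range, while the other KO libraries lay above it. Of 11 receptor, Janus kinase and STAT genes, limma called 0 in the main fit (without adjustment 2 higher), edgeR 0 and DESeq2 2 higher. Over all genes DESeq2 called 1.25% higher. Without KO 3 limma called 2 of the list higher, in a fit that called 338 genes higher. The median of the list was 0.05, equal to that of all tested genes.

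Downstream of the family stand genes that the factors are known to switch on. Their lists were chosen with earlier results of these data known, so where the calls fall among the lists is not a test. Of 20 interferon genes, 19 were in the table and 6 passed the filter on low values, all 6 called higher. Ifna2, Ifna4, Ifnb1, Ifnl2 and Ifnl3 passed through KO only, with HET means under 10, and Ifna5 passed on its HET mean as well, so the count is no support for a direction. Ifna4 had 1168, 146, 153 and 206 normalized counts in KO 1 to KO 4 and 0.857 to 7.29 in HET. For Ifnb1 the values were 1250, 157, 148 and 167 in KO and 1.71 to 7.50 in HET, and for Ifnl2 they were 530, 68.6, 41.9 and 62.5 in KO and 0.857 to 5.12 in HET. KO 1 held the highest value of each, as it did for Irf7. With TMM scaling 5 of the 6 were called. edgeR called 5 of the 7 it tested, and DESeq2 called 2 of the 19. DESeq2 gave an adjusted p to 16822 of the 44343 genes, and a gene without one counts here as not called. Its count of 2 therefore does not show that the others failed the test. Alpha interferon genes, like those of interferon lambda, have near-identical relatives, and their values are uncertain within each family.

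Of 10 genes that IRF3 and IRF7 can switch on, 8 were higher and 0 lower (without adjustment, 10 and 0), with a median log2 fold change of 3.96. Over all tested genes 0.921% were higher (4.05% without adjustment), and the median was 0.05. Ccl5 passed the filter on low values through KO only, and of the other 9 genes 7 were higher. The count stayed at 8 with TMM scaling and was 9 with edgeR and DESeq2, where 0.679%, 0.673% and 1.25% of all genes were higher. Ccl5, a chemokine for T cells, had 2820, 391, 218 and 414 normalized counts in KO 1 to KO 4 and 2.5 to 4.29 in HET. Ifit2, an antiviral RNA-binding protein, was at 950 to 12234 in KO and 41.3 to 62.8 in HET, and Zbp1, which senses nucleic acid in the Z form, at 341 to 1915 in KO and 13.7 to 26.9 in HET. The 3 genes were named for their small p and their groups did not overlap. Of 17 targets of ISGF3, 10 were higher and 0 lower (without adjustment, 13 and 0), with a median of 2.07, beside 0.921% of all tested genes higher (4.05% without adjustment). Bst2, which tethers budding virus, was at 172 to 943 in KO and 10.2 to 17 in HET. Ifi44 was at 513 to 3109 in KO and 32 to 39.7 in HET, and Oas2, an oligoadenylate synthetase, at 236 to 1822 in KO and 46.1 to 63.4 in HET. The count of ISGF3 targets was 6 without KO 1 and 6 without HET 1, HET 2, HET 3 or HET 4, each left out in turn. Those fits called 105 to 180 genes higher, against 198 in the main fit.

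Of 19 tested targets of IRF1 (20 listed), 5 were higher and 0 lower (without adjustment, 10 and 2), with a median of 1.02, beside the same 0.921% higher (without adjustment, 4.05% higher and 2.7% lower). The 2 lower without adjustment were Nos2 and Ciita. Nos2 was at 19.7, 11.6, 26.5 and 36.9 normalized counts in KO 1 to KO 4 and 26.6 to 57.6 in HET. For Ciita the values were 21.5, 9.06, 58.5 and 60.1 in KO 1 to KO 4 and 41.3 to 60.2 in HET. From KO 1 and KO 2 alone 3 of the list were lower without adjustment, and from KO 3 and KO 4 alone 0. Over all genes 3594 and 4103 were lower in these fits without adjustment. With edgeR, with DESeq2 and without KO 2, 0 of the list were lower as well. Cxcl9 and Il15 passed the filter on low values through KO only and were not called. Gbp3 was at 488 to 5711 normalized counts in KO and 44.6 to 89.9 in HET, and its relative Gbp2 at 204 to 2058 in KO and 39.4 to 61.5 in HET. B2m, the light chain of class I molecules, was at 1349 to 7023 in KO and 179 to 305 in HET. The other members called were Cd274, which encodes PD-L1, and Psmb8, a subunit of the immunoproteasome. The count was 9 without KO 3, 8 without KO 4 and 6 without KO 2, in fits that called 338, 277 and 201 genes higher. It was 4 without KO 1 and 4 without HET 1, HET 2, HET 3 or HET 4, each left out in turn (105 to 180 genes higher). TMM scaling gave 5, edgeR 6 and DESeq2 8, beside 0.679%, 0.673% and 1.25% of all genes. Irf1 itself was not called. Ifih1, Isg15, Usp18, Trim25 and Socs1 each stand in more than 1 of the lists, so the counts are not independent. Of 11 genes that restrain the pathway, 3 were higher and 0 lower (without adjustment, 4 and 0), namely Isg15, Usp18 and Tnfaip3. The list had a median of 0.42, against 0.05 over all tested genes, of which 0.921% were higher (4.05% without adjustment). Isg15, a ubiquitin-like modifier, was at 342 to 2181 in KO and 20.5 to 27.5 in HET. Usp18, which removes ISG15 and dampens the interferon receptor, was at 1147 to 5470 in KO and 412 to 523 in HET. The count was 1 without KO 1 and 1 without HET 1, HET 2, HET 3 or HET 4, each left out in turn. Those fits called 105 to 180 genes higher. Of 7 tested partners of IRF4 and IRF8 in blood cells (9 listed), the main limma fit, edgeR and DESeq2 called 0, and the main fit without adjustment 0. Spi1, which encodes PU.1, was at 4.48 to 13.2 in KO and 9.43 to 24.3 in HET, and Prdm1, which encodes BLIMP1, at 46.4 to 58.3 in KO and 34.6 to 41.3 in HET.

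**Figure D5:**
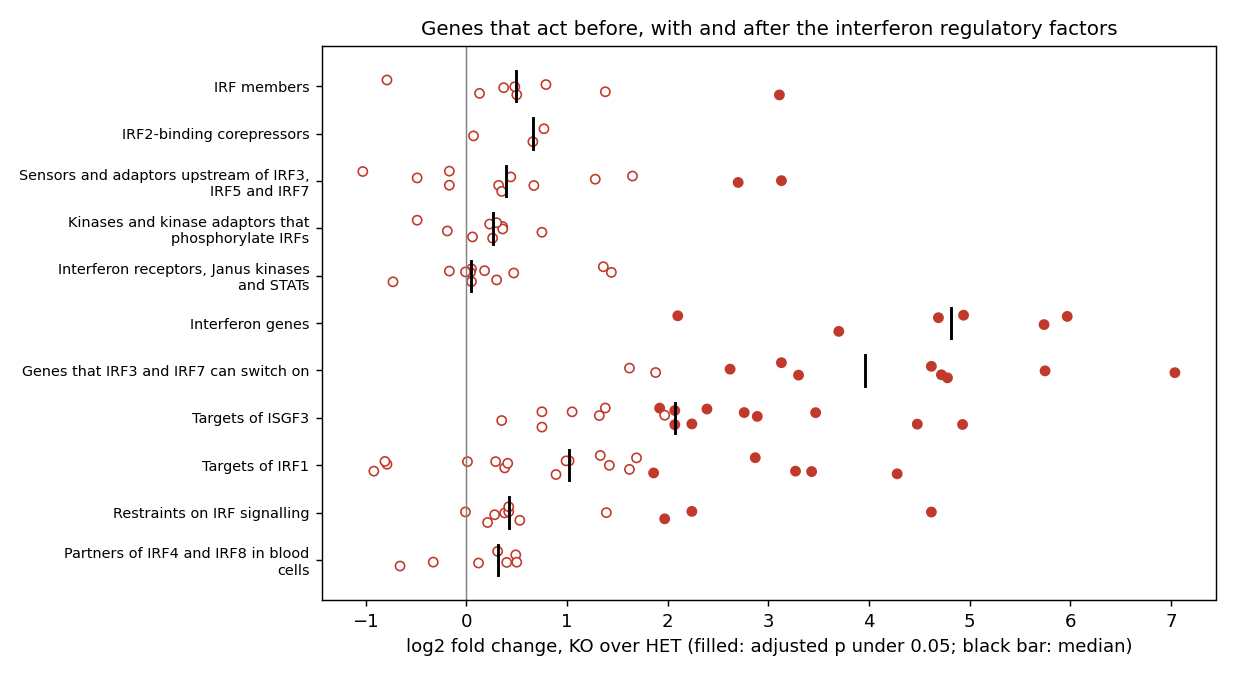
log2 fold changes of KO over HET for each tested gene of the lists around the family, 1 row a list, filled where the limma adjusted p is under 0.05, with a black bar at the median. Filled points number 8 of 10 among IRF3 and IRF7 targets and 10 of 17 among ISGF3 targets, beside 0.921% of all tested genes called higher. Of the IRF3 and IRF7 targets, Ccl5 passed the filter on low values through KO only. The interferon genes shown are those that passed the filter on low values, 5 of 6 of them through KO only, and the rows of kinases, receptors and blood-cell partners hold no filled point.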

How the data were processed

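The deposited table holds, per the labels, normalized counts, treated here as a signal. Its values have the form of gene counts divided by 1 factor per library. In each library the smallest nonzero value served as 1 read. All the authors' deposited signal values (100%) were multiples of it within 0.001 of a read, and whole reads were recovered so. Per the submitters' processing notes, mm10, STAR 2.7.3a, HTSeq, DESeq2 1.28.1, UMI-tools and FastQC 0.11.8 were used. Annotation, counting mode, strand setting and removal of duplicates are not given in the sources used here. Per the labels' protocols libraries were made with a SMARTer stranded total RNA kit for very small inputs. Replicates of a genotype all differed beyond sampling noise (chi-square over its degrees of freedom at least 29.7 in KO and 3.77 in HET).

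Differences were tested on log2(value + 1) in limma 3.58.1 under R 4.3.3, keeping genes averaging 10 or more, with trend and robust eBayes, two-sided, with Benjamini-Hochberg adjustment over 21498 genes and a threshold of 0.05. Fold changes on this scale understate low genes. Coordinates and exonic lengths are those of GENCODE M21, where 42961 symbols matched. Alternatives were other pseudocounts, filters, scalings and weights, a replicate block, edgeR 4.0.16 and DESeq2 1.42.0 on recovered reads, leaving out libraries, and, added after seeing the data, leaving out libraries or adding the block with TMM scaling. Fits were tested on simulated counts, which lacked the differences in general level that the KO libraries show. Genes beside the members are those of smallest p in each list (2, or 3 for interferons and targets), those most like a member, Ptprc, and the highest marker of each immune list. The text adds a few more after their values were seen. They are Adar (the targeted gene), Ins2, Ddx58, Cd274, Psmb8, Tnfaip3, Nos2, Ciita, Cxcl9, Il15, Trim25, Socs1, Ifna2, Ifna5 and Ifnl3. Members and lists were chosen with earlier results of these data known. The labels do not say whether same-numbered libraries are pairs. Some genes that the naming rule picks are not reported here.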

Additional observations from a re-analysis of the deposited data

Results flagged for a closer look

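Irf7 in KO 1, at 6887 normalized counts, stood apart from the other KO libraries at 1090 to 1896. The gap to the nearest KO library was 0.861 of the range of the group, above Dixon's critical value for 4 samples. Of 16 groups looked at (8 members in each genotype) this was 1, and chance alone marks about 1 group in 20. Without KO 1, Irf7 was still called, with a log2 fold change of 2.58 (limma adjusted p at most 0.00129 on leaving out any library).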

How the results depend on the processing

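Irf7 kept its direction and call in 33 of 33 alternatives. Its log2 fold change was 2.58 to 3.47 on leaving out 1 library, and 2.52 to 3.23 with TMM scaling. For Irf9 these ranges were 1.00 to 1.70 and 0.94 to 1.44, for Irf1 0.40 to 1.14 and 0.34 to 0.89, and for Irf2 0.10 to 0.91 and 0.05 to 0.66. They were 0.31 to 0.71 and 0.24 to 0.51 for Irf3, -1.14 to -0.36 and -1.36 to -0.33 for Irf4, -0.09 to 0.43 and -0.28 to 0.46 for Irf5, and -0.04 to 0.68 and -0.10 to 0.45 for Irf8. Irf9 also passed with quantile scaling (1.18), in the fit of genes averaging 200 or more with TMM factors (1.14) and with DESeq2 (1.57). With KO 1 and KO 2 only, Irf9 (2.08), Irf1 (1.58), Irf2 (1.42), Irf3 (1.02), Irf8 (0.92) and Irf4 (-1.62) passed, in a fit that called 9809 genes higher and 3182 lower. The same libraries with TMM scaling gave 1.67 for Irf9, 1.17 for Irf1, 1.00 for Irf2, 0.61 for Irf3 and -2.0 for Irf4, with 6397 genes higher and 4613 lower. With KO 3 and KO 4 only, the sign turned for Irf2 (-0.46), Irf3 (-0.02), Irf4 (0.03) and Irf8 (-0.18), with 1587 genes lower. With TMM scaling it turned for Irf2 (-0.31), Irf4 (0.18) and Irf8 (-0.03) and Irf9 passed (0.83), with 435 genes higher and 1565 lower. Irf5 turned sign with TMM scaling (-0.04, also with the replicate block) and with KO 1 and KO 2 only (-0.21, and -0.60 with TMM scaling). It also turned without KO 4 (-0.03, and -0.28 with TMM scaling), without HET 3 (-0.09, and -0.21), and with TMM scaling without KO 3 (-0.17). The causes were not tested. Genes higher numbered 198 and genes lower 5 in the main fit, and 105 to 338 and 1 to 46 on leaving out 1 library (102 to 378 and 5 to 114 with TMM scaling, for example 131 higher without HET 1, 30 lower without KO 2 and 13 lower without KO 4 or HET 4). They numbered 320 and 138 with quantile scaling, 404 and 284 among genes averaging 200 or more, and 127 and 1 without trend and robust settings. Genes lower were 2 among genes averaging 50 or more, 18 with array weights, 8 with edgeR and 3 with DESeq2. With a replicate block 182 genes were higher and 5 lower, Irf7 had 3.11 and Irf9 1.38 (18 genes lower with the block and TMM scaling). Deviations of same-numbered libraries from their group means correlated at -0.28, 0.27, -0.55 and 0.63. These values also carry the general level of each library, so they cannot decide whether the numbers mark pairs. Depth limits Irf4, Irf5 and Irf8, which had 5 to 115 reads in a library.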
